A study of Homo sapiens with 2 samples.

Results

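PSMD1, PSMD2, PSMD4 and ADRM1 encode the scaffold subunits and the ubiquitin receptors of the base of the 19S regulatory particle of the proteasome. The deposited NRF1 peaks whose centre lay within 20 kb of a transcription start site (TSS) of any annotated transcript of these 4 genes were taken, which gave 7 of the 5683 peaks. The peaks come from 1 chromatin immunoprecipitation sequencing (ChIP-seq) library of HCT116, a human colorectal carcinoma cell line, kept for 16 h in MG132 at 1 µM, a peptide aldehyde that inhibits the proteasome. NRF1 was precipitated with an antibody against the endogenous protein. The matching input library was not analysed here and no untreated cells were compared, so that the values describe occupancy under proteasome inhibition and not a change caused by it. NRF1 here is the CNC-type basic leucine zipper factor encoded by NFE2L1, and not nuclear respiratory factor 1, an unrelated factor with the same abbreviation.

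The 26S proteasome degrades proteins tagged with ubiquitin, and its 19S particle recognises, unfolds and feeds them into the 20S core. In the base of the 19S particle, PSMD1 (Rpn2) and PSMD2 (Rpn1) are large scaffold proteins built of repeats, on which ubiquitin receptors, shuttle factors and deubiquitinating enzymes dock. PSMD4 (Rpn10) and ADRM1 (Rpn13) bind ubiquitin chains, and ADRM1 sits on PSMD1 and in turn holds the deubiquitinating enzyme UCHL5. NRF1 is kept short-lived by the proteasome, accumulates in the nucleus when the proteasome is inhibited, and binds with small MAF proteins to the antioxidant response element (ARE), an activity known for raising the transcription of proteasome genes.

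An ARE was searched on both strands as TGAGNNNGC or TGACNNNGC, and the words TGAGTCAGC and TGACTCAGC are called the full ARE. Its first 7 bases also form a site for AP-1 factors, and an A after the last base extends it towards the part read by small MAF proteins. The sequences that follow show, for the peak at the start of each gene, the word closest to the full ARE in capitals with the surrounding bases, 5′ to 3′ on the strand that reads as an ARE, on hg19. The word of PSMD2 overlaps an untranslated exon of PSMD2-204, a transcript annotated as a target of nonsense-mediated decay, so fewer bases are shown there.
PSMD1, chr2:231921774-231921862, minus strand: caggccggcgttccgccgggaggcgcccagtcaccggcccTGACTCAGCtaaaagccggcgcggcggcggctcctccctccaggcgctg
PSMD2, chr3:184017220-184017248, minus strand: ggagccgccgTGACTCAGCcccgcagcct
PSMD4, chr1:151227388-151227476, minus strand: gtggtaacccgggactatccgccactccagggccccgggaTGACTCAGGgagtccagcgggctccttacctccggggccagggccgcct
ADRM1, chr20:60877775-60877863, plus strand: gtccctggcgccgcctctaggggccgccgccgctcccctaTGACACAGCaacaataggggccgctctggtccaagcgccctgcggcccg

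PSMD1 and PSMD2 carried the identical full ARE TGACTCAGC. The words of the receptor genes each differed from it at 1 position, counted from 1 at the first T of the word. PSMD4 had C9G, which leaves the AP-1 part intact but removes the closing C of the ARE, and ADRM1 had T5A, which is still an ARE but no longer an AP-1 site. In PSMD1, PSMD2 and PSMD4 the word lay on the strand opposite to the gene, in intron 1, and in ADRM1 on the strand of the gene, upstream of the canonical start. All 4 genes lie on the plus strand.

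Each of the 4 genes had exactly 1 peak with its centre within 2 kb of a TSS. Over the annotation, 1215 of 20163 protein-coding genes had such a peak, or 6.03% (95% Wilson interval 5.71 to 6.36%), and with a window of 20 kb the share was 18.7%. The score is the value the authors deposited for each interval, which in MACS is −log10 of a peak's p-value times 10. It ranks peaks within the list and does not measure occupancy on a linear scale. The median score of the list was 91.86, with a range of 50.00 to 3100.00. The 4 peaks scored 380.09 to 925.88 with a median of 607.38, against a median of 99.46 for the best peaks of the 1215 genes. Because there is 1 library, no value has a replicate error, no difference between genes was tested, and the depth behind each peak is unknown.

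**Figure D1:**
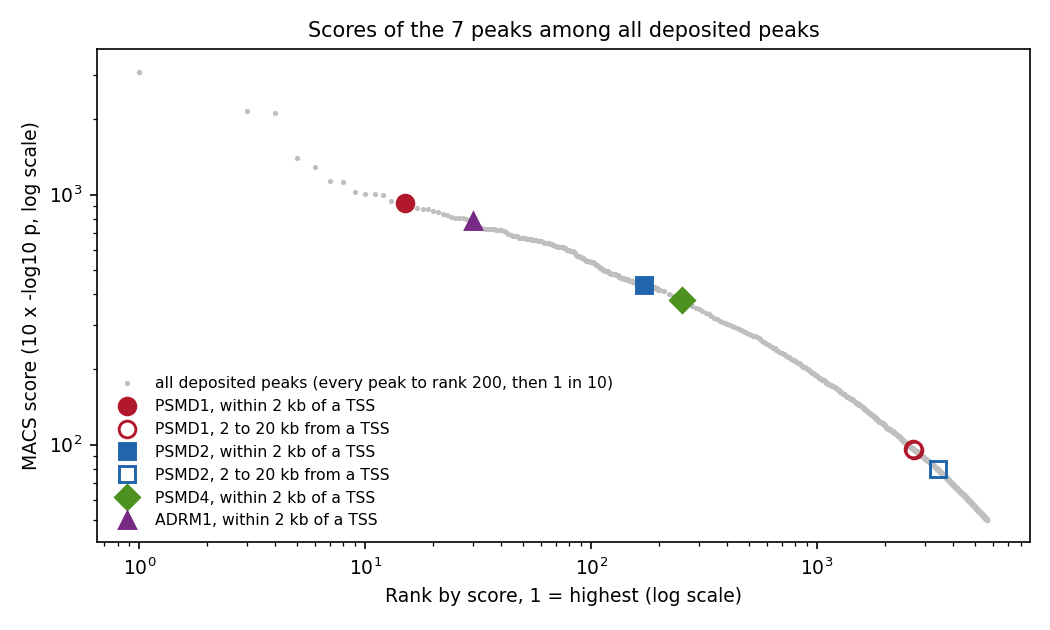
Score of each deposited peak (vertical axis, MACS score, log scale) against its rank (horizontal axis, 1 is the highest, log scale). Filled symbols are the 4 peaks at the starts of the genes, at ranks 15, 30, 172 and 252, and open symbols are the 3 distal peaks of PSMD1 and PSMD2, at ranks 2671, 2702 and 3422, of which the first pair overlaps in the plot.

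The scaffold gene PSMD1 (ENSG00000173692, chromosome 2 from 231921559 to 232037830) had the highest score of the 4 genes. Its peak ran from 231921191 to 231922247 with a score of 925.88, rank 15 of all peaks. At 1057 bp it was also wide, above 99.0% of all peaks, whose median width was 501 bp. It reached from 390 bp upstream to 666 bp downstream of the TSS of the canonical transcript at 231921581. Its centre lay 138 bp downstream of that TSS, in the 5′ untranslated part of exon 1, ahead of the coding start at 159 bp, and 111 bp from the nearest TSS of any PSMD1 transcript.

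The PSMD1 peak held 4 AREs, more than any of the other 3 genes, and they formed a pair on each side of the centre. The full ARE lay 237 bp downstream of the TSS, on the minus strand, from 231921814 to 231921822. A further ARE, TGACTGGGC, lay next to it on the plus strand, at 253 bp. On the other side, TGAGGAGGC at 31 bp and TGACTGAGC at 43 bp lay in the 5′ untranslated part of exon 1. From the full ARE, TGACTGGGC differs at 2 positions, TGAGGAGGC at 3 and TGACTGAGC at 1. The middle of the full ARE was 99 bp from the peak centre, so that it crossed the edge of the central 200 bp. In 92.2% of all peaks the closest word was nearer to the centre, and the median distance was 30 bp. The centre is the midpoint of the interval and not a summit, which the deposited list does not give. The count of 4 AREs was not particular to PSMD1, whose peak was also the widest of the 4. Among the other proteasome subunit genes compared below, the peaks of PSMA3, PSMA5 and PSMD12 also held 4 AREs, and that of PSMA7 held 6.

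PSMD2 (ENSG00000175166, chromosome 3 from 184016986 to 184026838), the other scaffold gene, had a peak from 184016821 to 184017504 with a score of 433.37, rank 172. This peak was 684 bp wide and reached from 208 bp upstream to 475 bp downstream of the canonical TSS at 184017029. Its centre lay at 133 bp, within the coding part of exon 1. The full ARE was at 205 bp, on the minus strand of intron 1 from 184017230 to 184017238, and 72 bp from the centre. The only further ARE in the peak was TGACAGCGC at 334 bp, which differs from the full form at 3 positions. The scaffold genes thus shared the word, its strand and its intron, at 237 and 205 bp from the TSS, while PSMD1 scored 925.88 and PSMD2 433.37.

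The ubiquitin receptor gene PSMD4 (ENSG00000159352, chromosome 1 from 151227185 to 151239955) had the lowest score of the 4 genes and no ARE. Its peak, from 151227053 to 151227705, was 653 bp wide and scored 380.09, rank 252. The centre lay in intron 1, 169 bp downstream of the canonical TSS at 151227210. The word TGACTCAGG lay at 222 bp, on the minus strand from 151227428 to 151227436, and 53 bp from the centre, between the positions of the full AREs of PSMD2 and PSMD1. An ARE was found in 4958 of 5673 peaks with determined sequence, or 87.4% (95% interval 86.5 to 88.2%). Of the 715 peaks without one, PSMD4 ranked 7 by score, and of the 252 peaks that scored as high as PSMD4 or higher, 7 (2.78%) had none. In 480 of the 715 peaks (67.1%) the closest word was 1 mismatch from the full ARE, as it was in PSMD4. The substitution C9G alone separated the closest word from the full ARE in 174 peaks, whose median score was 83.41, and PSMD4 ranked 9 by score among them. A peak without an ARE was not particular to PSMD4 among the proteasome subunit genes compared below. Of the other 29, 25 had an ARE in the peak. PSMB7 had none and the same closest word TGACTCAGG, with a higher score of 614.43.

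ADRM1 (ENSG00000130706, chromosome 20 from 60877149 to 60883918), the other receptor gene, differed from the rest in where its peak lay. The peak, from 60877444 to 60878132, was 689 bp wide and scored 781.39, rank 30. Its centre was 265 bp upstream of the canonical TSS at 60878053, and the peak reached from 609 bp upstream to 79 bp downstream of it. With the nearest TSS of any ADRM1 transcript, that of ADRM1-205, the centre was still upstream, by 164 bp. The annotated gene begins further upstream, at 60877149, with another transcript, so that the peak lies within the gene as annotated and the word in an intron of that transcript. The single ARE of the peak, TGACACAGC, lay on the plus strand from 60877815 to 60877823, 234 bp upstream of the canonical TSS and 31 bp from the centre. It is followed by A. The canonical transcript of ADRM1 has a short untranslated first exon of 53 bp and a coding start at 572 bp, further from the TSS than in the other 3 genes, where it lies at 26 to 159 bp.

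The substitutions of the receptor genes were the most frequent ones over all peaks. Among peaks whose closest word was 1 mismatch away from the full ARE, T5A accounted for 14.2% and C9G for 11.1%. The 224 peaks with T5A alone had a median score of 85.41, and ADRM1 had the highest score of them. Peaks with a full ARE had a median of 103.43. Within the 4 genes the score did not follow the word, since ADRM1 without a full ARE ranked above PSMD2 with one.

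**Figure D2:**
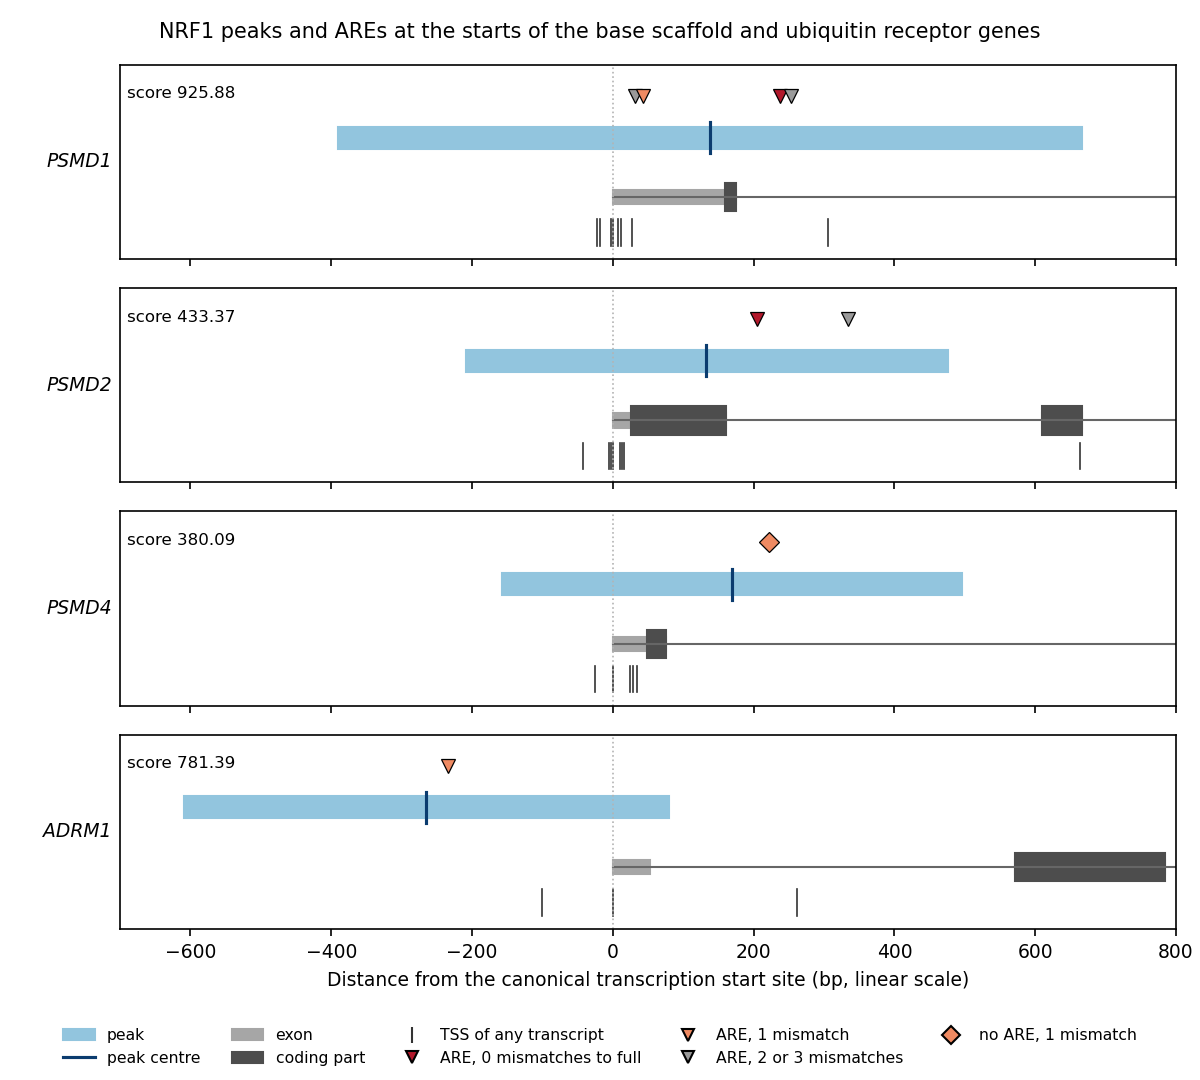
Each row shows the start of 1 gene against the distance from the canonical TSS in bp, with the peak in blue, its centre as a dark line, exons in grey with the coding part darker and taller, the TSSs of all transcripts as ticks, and AREs as triangles coloured by mismatches to the full ARE. The diamond in PSMD4 is the word TGACTCAGG, which is not an ARE. The words of PSMD1, PSMD2 and PSMD4 sit at 237, 205 and 222 bp, past the end of exon 1, and that of ADRM1 sits at -234 bp.

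Set against all peaks, 3 of the 4 peaks at the starts held an ARE and 2 held a full ARE. The share of all peaks was 87.4% with an ARE and 61.3% with a full ARE. A word with at most 1 mismatch to the full ARE was present in all 4, against 89.1% of all peaks, and the word TGANTCA in PSMD1, PSMD2 and PSMD4 but not in ADRM1, against 80.6% of all peaks. A full ARE followed by A, found in 47.1% of all peaks, was present in none of the 4, where the base after the full ARE was T in PSMD1 and C in PSMD2. No test was run on these counts of 4 genes. The 4 peaks were also wider than most, at 653 to 1057 bp against a median of 501 bp. The lengths searched were therefore not alike, and the shares were not adjusted for width. An ARE by itself is also a loose form. In flanks of the same length that began 2 kb outside the peaks, 32.7% on the left and 32.8% on the right held an ARE, and 1.43% and 1.31% a full ARE. Beside the 4 genes, 3 of the left flanks and 1 of the right flanks held an ARE, and none held a full ARE.

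The peaks at the starts lay in sequence rich in G and C. The G and C content was 64.8% in PSMD1, 71.1% in PSMD2, 57.7% in PSMD4 and 72.4% in ADRM1, against a median of 45.3% over all peaks (quartiles 39.2 and 52.7%). The ratio of observed to expected CpG was 0.70, 0.86, 0.65 and 0.90 in the same order, against a median of 0.21, so that all 4 had the composition usual for promoters in CpG islands. ADRM1 had the highest value of both measures and PSMD4 the lowest. These measures were added after the peaks had been seen. The part of base composition in the scores was not tested. The medians over all peaks also cover distal peaks, since 1122 of the 5683 lay within 2 kb of a TSS of a protein-coding gene. No comparison with those peaks alone, or with the other proteasome subunit genes, is given here. High values are therefore not shown to be particular to the 4 genes.

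The promoters were searched on both strands over 300 bases, from 250 bases before the canonical TSS onwards. These windows hold the word of ADRM1, while the words of PSMD1, PSMD2 and PSMD4 lie further downstream. An ARE was found in the windows of PSMD1 and ADRM1, against 30.9% of 20140 promoters of protein-coding genes, and the full ARE in none of the 4 windows, against 0.74%. The GC box GGGCGG, the site of Sp1-like factors, occurred 3 times in PSMD1, 3 times in PSMD2, 2 times in ADRM1 and not in PSMD4, against 61.0% of promoters with at least 1. The CCAAT box, bound by NF-Y, was present 3 times in PSMD4 and 1 time in ADRM1, against 35.9%. TGANTCA (5.44% of promoters), the ETS word CCGGAAGT (6.09%) and the palindromic motif of nuclear respiratory factor 1 (8.36%) were found in none of the 4.

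The remaining 3 of the 7 peaks were distal and scored 79.69 to 96.05, around the median of the list and below every peak at the starts. They fell within the windows of PSMD1 and PSMD2, which have 19 distinct annotated TSSs each, against 12 in PSMD4 and 5 in ADRM1. Each was within 20 kb only of the start of a shorter transcript and not of the canonical TSS, so that with the canonical TSS alone the 4 peaks at the starts were left. The TSS nearest to 2 of the 3 belonged to another gene. Their full AREs are given here with the surrounding bases, because each of these low-scoring peaks held a full ARE, which the peaks at the starts of PSMD4 and ADRM1 did not. That of PSMD2 overlaps an untranslated exon of an EIF4G1 transcript, so fewer bases are given.
PSMD1 intron 16, chr2:231965234-231965272, plus strand: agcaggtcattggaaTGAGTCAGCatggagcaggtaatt
PSMD1 downstream, chr2:232049278-232049316, minus strand: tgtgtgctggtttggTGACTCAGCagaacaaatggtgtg
PSMD2 downstream, chr3:184038007-184038035, minus strand: ggagccagggTGACTCAGCggcttcccca

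The first, in intron 16 of PSMD1 from 231964919 to 231965471, scored 96.05 and lay 43614 bp from the canonical TSS and 15401 bp from the start of PSMD1-211, a transcript without a defined coding sequence. It held TGAGTCAGC, 58 bp from its centre, and also TGACACAGC, the word of ADRM1, and TGAGCCTGC. HTR2B, a serotonin receptor gene nested in this locus, has its nearest TSS 24561 bp away. The second, from 232049022 to 232049451, scored 95.07 and lay past the 3′ end of PSMD1. It was 14120 bp from the start of PSMD1-212, a transcript with a retained intron, and slightly nearer, at 14024 bp, to a TSS of ARMC9. In both, the full ARE is followed by A, unlike in the peaks at the starts. Their G and C content was 42.5% and 49.5%.

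The distal peak of PSMD2, from 184037823 to 184038253, scored 79.69 and lay 12328 bp from the start of PSMD2-218, a transcript with a retained intron. It lies within EIF4G1, which encodes a translation initiation factor, and its centre was 47 bp from a TSS of that gene. By position it is therefore a peak at 1 annotated EIF4G1 start that falls within the window of PSMD2. EIF4G1 also has another annotated TSS nearer to PSMD2, 15121 bp from the centre of the peak at the PSMD2 start, and the distal peak is not at that one. In this distal peak the full ARE was 17 bp from the centre. The G and C content was 61.5%, above that of the other distal peaks, and the ratio of observed to expected CpG was 0.13. Beyond the 20 kb window, the next peak was 148078 bp from a TSS of PSMD1 (score 84.76), 49921 bp from PSMD2 (score 315.06), 75712 bp from PSMD4 (score 51.30) and 58026 bp from ADRM1 (score 63.31).

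Full AREs near the 4 genes lay both inside and outside peaks. Within 20 kb of the canonical TSSs hg19 holds 6 full AREs, and the 2 in a peak were those in intron 1 of PSMD1 and PSMD2. The other 4 were at 12684 bp upstream of PSMD1, 11173 bp downstream of the PSMD2 TSS, and 17550 and 16228 bp upstream of PSMD4, and ADRM1 had none. Over chromosomes 1 to 22, X and Y, 3915 of 53132 full AREs (7.37%) lay in a peak. With the window of 20 kb around any annotated TSS, by which the 7 peaks were taken, there were 12 full AREs, of which 5 lay in a peak and 7 did not. In PSMD4, with either window, both full AREs lay outside a peak and the peak held none.

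The other subunit genes of the proteasome were compared by lists, which hold 7 genes of 20S alpha subunits, 7 of constitutive 20S beta subunits, 6 of 19S ATPases and 9 of the 19S lid. All 33 genes, the 4 included, had exactly 1 peak within 2 kb. Among the 33, PSMD1 ranked 2 by score, ADRM1 4, PSMD2 10 and PSMD4 14, so that all 4 lay above the overall median of 311.38. The median of the 4 genes, 607.38, was above those of the lid (430.05), the alpha subunits (305.06), the beta subunits (296.08) and the ATPases (266.56). The lists overlapped. Lid genes ran from 119.94 at PSMD13 to 1128.13 at PSMD14, and alpha subunit genes from 90.61 at PSMA2 to 681.29 at PSMA1. The other part of the base, the ATPases that unfold substrates, had its highest score of 412.41 at PSMC3, which is above PSMD4 and below PSMD2. Genes within a list are not replicates, and no test was run between lists.

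**Figure D3:**
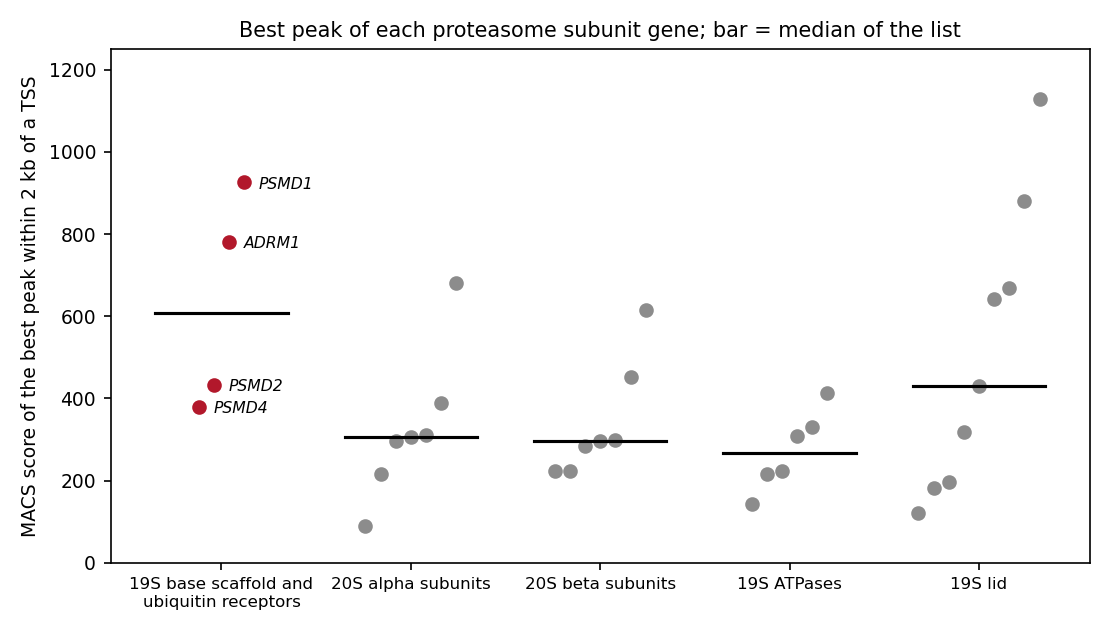
MACS score of the best peak within 2 kb of a TSS (vertical axis, linear from 0) for each of 33 proteasome subunit genes in 5 lists (horizontal axis), with 1 point per gene and a bar at the median of the list. PSMD1 at 925.88 and ADRM1 at 781.39 lie above all ATPase, alpha and beta subunit genes, PSMD2 at 433.37 lies above all ATPase genes but within the range of the other 3 lists, and PSMD4 at 380.09 lies within the range of each list.

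The position of the word downstream of the TSS was shared with many other subunit genes. A word 150 to 350 bp downstream, a range set after the values had been seen, was found in 3 of the 4 genes and in 16 of the other 29 subunit genes, against 59 of the 1215 protein-coding genes with a peak (4.86%), of which the subunit genes are a part. The closest word was downstream of the TSS at any distance in 25 of the other 29 subunit genes, against 56.7% of the 1215. It lay in intron 1 in 17 of the 29. ADRM1 stood at the other end, since its word at -234 bp was the farthest upstream of all 33. Orientation varied more, with the word on the strand opposite to the gene in 17 of the other 29 subunit genes, against 51.7% of the 1215. The 1215 genes were taken by a peak near any annotated TSS, while distances of words were measured from the canonical TSS. The shares of 4.86% and 56.7% therefore also cover genes whose peak lies at another start.

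**Figure D4:**
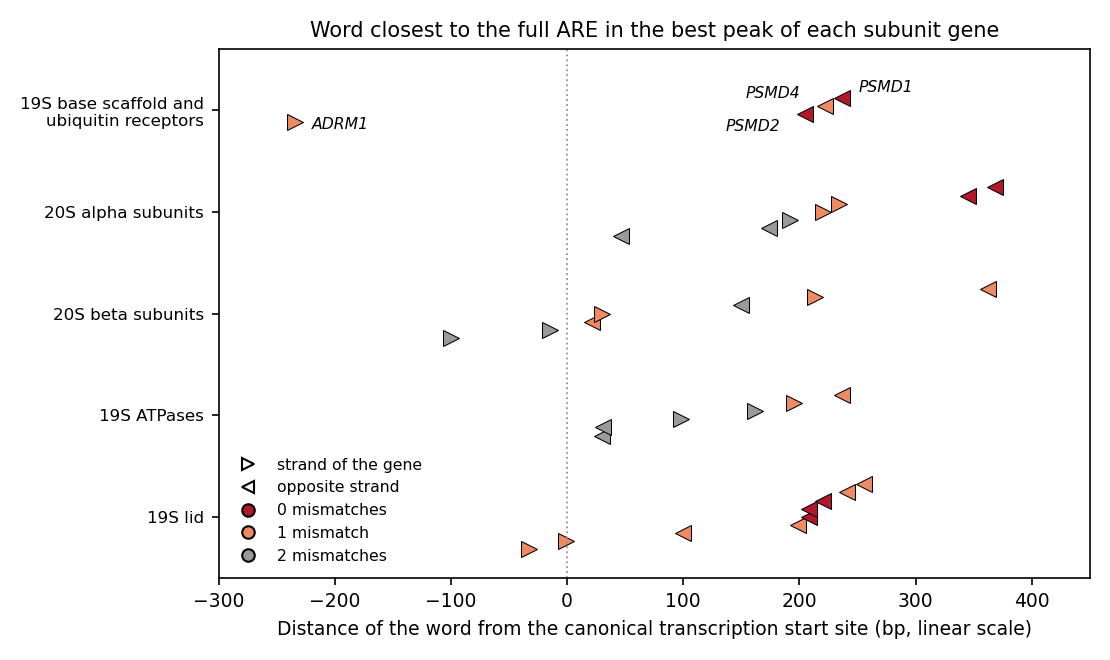
Distance from the canonical TSS in bp (horizontal axis) of the word closest to the full ARE in the best peak of each of 33 subunit genes, in 5 lists (vertical axis), with the direction of the triangle for the strand relative to the gene and the colour for mismatches. PSMD1, PSMD2 and PSMD4 fall at 205 to 237 bp among words of the lid and alpha subunits, and ADRM1 at -234 bp is the farthest upstream.

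The words themselves recurred in other subunit genes. The full ARE TGACTCAGC of PSMD1 and PSMD2 was also the closest word in 4 of them, PSMA3, PSMA5, PSMD7 and PSMD12, each time on the strand opposite to the gene. TGACTCAGG of PSMD4 was the closest word in PSMB7 and PSMD14, at 213 and 256 bp, of which PSMD14 had the highest score of all subunit genes. TGACACAGC of ADRM1 was the closest word in PSMC5, but there at 237 bp downstream and on the opposite strand. An ARE was present in 25 of the other 29 peaks, a full ARE in 5 and a word with at most 1 mismatch in 19 of them. Over all deposited peaks, TGACTCAGC was present in 2818, TGACTCAGG in 290 and TGACACAGC in 287.

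Genes for proteins that dock on the 4 subunits, carry substrates to them or process NRF1 were counted in the same way. Of 7 such genes, 2 had a peak within 2 kb, against 6.03% of all protein-coding genes, and no test was run on this count. They were UBQLN1 with a score of 735.45 and RAD23B with 520.94, both encoding shuttle factors that bring ubiquitinated substrates to the 19S base. No peak lay within 2 kb of UCHL5, the deubiquitinating enzyme held by ADRM1, or of USP14, that held by PSMD2. UBQLN2, UBQLN4 and DDI2, which encodes the protease that processes NRF1, had none either. Neither of the peaks held a full ARE. The absence of a peak says that none passed the authors' threshold in this library, and not that NRF1 was absent.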

How the data were processed

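NRF1 ChIP DNA from HCT116 cells (MG132, 1 µM, 16 h) was sequenced with single-end reads. The authors mapped the reads to hg19 and deposited intervals with a score per peak, and the submitters' processing notes name CASAVA 1.8.2, Bowtie2 2.2.6 and MACS 1.4.2. MACS settings, the handling of duplicate reads and the control library are not given in the sources used here. The input library was not analysed here. The depth is unknown, and 95% Wilson intervals cover counting error only.

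Interval starts, counted from 0 in the deposited list, were raised by 1. Genes and TSSs came from GENCODE release 44 on hg19 and sequence from the same build. Scripts in Python 3.11.15 (numpy 2.4.6, scipy 1.17.1, pysam 0.24.0, matplotlib 3.10.9) measured distances from peak centres and searched AREs in 5673 peaks, leaving out 5 peaks off the main chromosomes and 5 with undetermined bases. The word closest to the full ARE has the fewest mismatches and, among ties, is nearest to the centre. Tested on simulated sequences, the search recovered 200 of 200 words planted in sequence of A and T only. It called none in 50 bare sequences, but these also held only A and T, so that no ARE could occur there. The rate of false calls was therefore not tested.

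The 4 genes, the gene lists and the alternatives were chosen with earlier results of these data known. Named genes are these 4, some of the genes with the lowest or highest score of a list, the docking partners, and genes that share a word with the 4. The other genes nearest to the distal peaks are named as well. The closest word, the search for full AREs over 20 kb, the range of 150 to 350 bp and base composition were added after values had been seen. The study's array values were not used. A further gene of the list of docking partners is not reported here, and the count of 7 leaves it out.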

Additional observations from a re-analysis of the deposited data

How the results depend on the processing

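The number of peaks at the 4 genes was 7, and 4 remained within a window of 2 kb, with the canonical TSS only, and above a minimum score of 100. It was 8 with a window of 50 kb, and 7 with distances from the edge of the peak or with peaks within 500 bp merged. All 4 genes had a peak within 2 kb under each of the 3 alternatives for that count. From the nearest TSS of any transcript in place of the canonical one, the centres were at 111 bp in PSMD1, 117 bp in PSMD2, 134 bp in PSMD4 and -164 bp in ADRM1, with each sign kept. An ARE in 3 of the 4 best peaks became a full ARE in 2, a full ARE in the central 200 bp in 1, and an ARE in the downstream flank in 1, and it was 3 in the central 200 bp and in the upstream flank. With at most 1 mismatch to the full ARE, an alternative chosen after seeing the data, it was 4. Among the 1122 peaks within 2 kb of a TSS of a protein-coding gene, PSMD1 ranked 5, ADRM1 16, PSMD2 73 and PSMD4 97, in the same order as among all peaks. The median score was 607.38 with either window. No paired analysis was possible because there is 1 ChIP library. Without read counts, the list limits what can be said of occupancy below the authors' threshold, and scores of other libraries cannot be set beside these.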
